A study of Mus musculus with 63 samples.

Results

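The comparison described here is the change over 1 day, from E15.5 to E16.5 (embryonic days), in newborn neurons sorted from the dorsal cerebral cortex of Ski knock-out mouse embryos. It rests on 6 of the 63 RNA libraries of the study, 3 of E15.5 and 3 of E16.5, chosen by cell type and day and not by any measured value, and it covers all 15231 genes tested of the 23078 listed. The cells of both groups came from C57Bl/6 embryos labelled Ski knock-out and female that carried the Tbr2::GFP reporter, in which green fluorescent protein marks cells that use Tbr2 (Eomes) or have recently done so, and GFP-positive cells were collected by flow sorting after papain dissociation. The same reporter gave the basal progenitors (BP) of the study, and the sources used here do not say how newborn neurons (NBN) and BP were told apart. Hes5::GFP marked the neural stem cells (NSC) of the study. Every group is a Ski knock-out and no wild type library was analysed here, so the values follow 1 day of development in embryos that all carry the knock-out label, and what the loss of Ski changes cannot be read from them. No label says that the 3 libraries of a group came from separate embryos. The p-values measure only the spread between libraries of a group, estimated over all 63 libraries of 19 groups. That spread may be technical. Xist and Y-linked levels, given below, differed between libraries within both groups.

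Excitatory neurons of the cortex are born from radial glia, directly or through Tbr2-positive basal progenitors, and then migrate outward to settle. Neurons born first take up the deep layers, many of them sending axons out of the cortex under control of factors such as Fezf2, Bcl11b (Ctip2) and Tbr1. Neurons born later pass them to form the upper layers, which express Cux1, Cux2 and POU-domain factors and connect mostly to other cortical areas. SKI is a transcriptional co-repressor that acts with SMAD proteins.

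Ski was read at 47.6, 45.0 and 38.3 TPM (transcript abundance scaled to the same total in each library) in the E15.5 libraries and at 42.8, 45.3 and 43.5 TPM in the E16.5 libraries. These levels overlap between the days, and as a total over the gene, with no wild type beside them, they do not check the knock-out label. Neuronal genes were high in these cells. The pan-neuronal tubulin Tubb3 lay between 2749 and 3797 TPM and the migration-associated Dcx between 537 and 1128 TPM in the 6 libraries. The stem cell factor Sox2 lay at 5.28 to 15.48 TPM, the proliferation marker Mki67 at 2.19 to 9.68 TPM and Eomes at 20.1 to 93.5 TPM. The 24 genes of neuronal differentiation summed to 20156 to 22748 TPM here. They were also high in BP (14836 to 16768 TPM) and NSC (13484 to 18693 TPM) of the same days.

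Of the E16.5 libraries, replicates 2 and 3 were alike and replicate 1 stood apart. E16.5 replicate 1 correlated with the 3 E15.5 libraries at r = 0.9886, 0.9852 and 0.9844 (log2 values, across 15231 genes), and with the other libraries of its own day at only 0.9782 and 0.969. Mitochondrially encoded genes summed to 96434, 109122 and 92231 TPM at E15.5 and to 101955 TPM in E16.5 replicate 1, but to 50705 and 49703 TPM in replicates 2 and 3. Cytosolic ribosomal protein genes summed to between 27995 and 29632 TPM in those 4 libraries and to 39156 and 37482 TPM in the other two. The rank correlation of level with transcript length was -0.143, -0.141 and -0.138 at E15.5 and -0.129, -0.169 and -0.178 at E16.5. Counts and list medians below are therefore also given without E16.5 replicate 1, and for the lists it moved most with it as the only library of its day. The summed level of mitochondrially encoded genes and the correlation with transcript length were also each taken as a covariate of the fit, an alternative chosen after seeing the data. The sex label could not hold for every library: Xist was at 246 and 75.8 TPM in E15.5 replicate 1 and E16.5 replicate 3 and at most 2.39 TPM in the others, where 4 Y-linked genes summed to between 44.7 and 123 TPM.

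**Figure D1:**
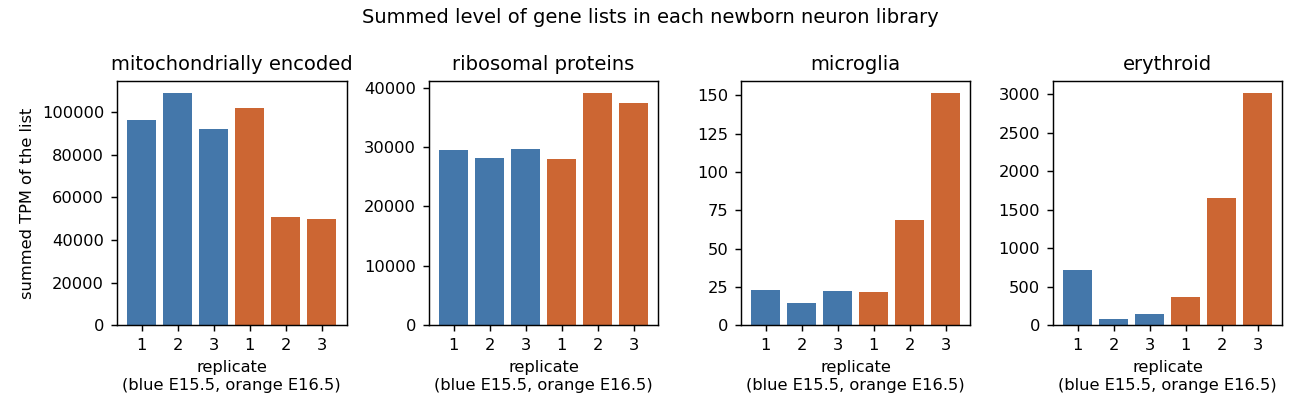
Summed TPM of 4 gene lists (y axes) in each of the 6 newborn neuron libraries (x axis, replicate number; blue E15.5, orange E16.5). E16.5 replicate 1 is near the E15.5 libraries in all 4 panels, whereas replicates 2 and 3 have 50705 and 49703 TPM of mitochondrially encoded transcripts and the highest sums of microglial and erythroid genes.

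Between E15.5 and E16.5, 77 genes rose and 36 fell at least 2-fold on the log2(TPM + 1) scale (limma, Benjamini-Hochberg adjusted p under 0.05 over all genes). Mc4r, Rgs16, Rgs8, Kit and Drd1a were among the genes that fell, and Kif26b, Fam19a2, Pou3f1, Dtx4 and Podxl among those that rose. Some markers of glial cells and of microglia also rose. The calls are 0.506% of the genes tested for the rises and 0.236% for the falls. At any size of change, 246 genes were higher (1.62%) and 75 lower (0.492%). The 3 E16.5 libraries were all above the 3 of E15.5 for 1894 genes (12.4%) and all below them for 740 (4.86%). At an unadjusted p under 0.05 there were 1741 genes above 0 and 582 below it, 15.3% of all genes tested, which is the background for the counts of that kind given for gene lists. Over all genes the median difference was 0.04, with 8547 genes above 0 and 6675 below it, the background for the signs counted in gene lists. Of the called genes, 76 of 77 and 35 of 36 had groups that did not overlap. Leaving out E16.5 replicate 1 gave 142 rises and 71 falls, with 72 and 32 of the original calls among them, whereas leaving out E15.5 replicate 2 gave 26 and 16, E15.5 replicate 3 gave 40 and 14, and E16.5 replicate 2 gave 28 and 13. Leaving out E16.5 replicate 3 gave 54 and 30. With E16.5 replicate 1 as the only library of its day, 14 rises and 8 falls were called, 10 and 3 of them shared. With the mitochondrial covariate 44 of the rises and 15 of the falls were still called and 54 genes were not, and with the transcript length covariate 67 and 27 were. Throughout, "called" means this pair of thresholds, differences are E16.5 minus E15.5 in log2(TPM + 1) with their standard error, which understates the change of genes of low level, and "kept" means called with each of the 6 libraries left out in turn. Of all called genes 27 were kept, 17 rises and 10 falls. Each such fit still took its spread from all the other libraries. With only the 6 libraries of the comparison, 7 of the 77 rises and 7 of the 36 falls were still called. Adamts17, Drd1a, Cblb, Kif26b, Slc6a11, Dtx4, Tnc and Kcnf1 passed with each library left out in turn but were not called in that fit.

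The largest fall was that of Mc4r, the melanocortin 4 receptor, a G protein-coupled receptor known for its part in energy balance. It had 65.9, 96.1 and 92.6 TPM at E15.5 and 19.4, 22.7 and 19.9 TPM at E16.5, so that each E16.5 library had less than any E15.5 library (-1.97 ± 0.36, adjusted p = 0.000782, kept). Rgs16, an activator of the GTPase of G protein alpha subunits that ends receptor signalling, had the smallest adjusted p of all genes. Its values were 76.4, 90.0 and 103 TPM at E15.5 and 24.8, 30.4 and 25.1 TPM at E16.5 (-1.71 ± 0.18, adjusted p = 5.06e-08, kept). Both genes were lower in all E16.5 libraries alike, replicate 1 included.

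Other large falls follow. Adamts17, a secreted metalloprotease, went from 23.0, 28.9 and 17.3 TPM to 5.81, 5.45 and 9.28 TPM (-1.62 ± 0.24, adjusted p = 4.16e-05, kept). Hs3st3b1, which adds 3-O-sulfate to heparan sulfate, went from 9.64, 11.3 and 13.3 TPM to 3.93, 3.25 and 2.65 TPM (-1.54 ± 0.29, adjusted p = 0.00121, kept). Neither gene had overlapping groups. Fgf18, a fibroblast growth factor, had 11.6, 19.1 and 16.3 TPM and then 4.76, 4.08 and 6.26 TPM (-1.45 ± 0.35, adjusted p = 0.0183), and Pappa2, a protease of insulin-like growth factor binding proteins, had 25.6, 22.9 and 24.4 TPM and then 10.5, 9.41 and 5.83 TPM (-1.43 ± 0.35, adjusted p = 0.0189). Cxcl14, a chemokine, had 13.4, 10.3 and 25.3 TPM and then 0.62, 5.07 and 8.60 TPM (-1.83 ± 0.46, adjusted p = 0.0237). The lowest of these, E16.5 replicate 1, carried part of that difference, which was -1.09 without it (adjusted p = 0.128). Dpf3, a subunit of the BAF chromatin remodelling complex, had 32.0, 47.6 and 33.1 TPM and then 11.8, 8.82 and 18.97 TPM (-1.48 ± 0.40, adjusted p = 0.0361), and the transcript E130114P18Rik fell from a mean of 34.2 to 11.7 TPM (-1.55 ± 0.36, adjusted p = 0.0127). The adjusted p of Fgf18 was highest without E16.5 replicate 2 (0.154) and was also above 0.05 without E15.5 replicate 2 (0.136) or 3 (0.082). That of Pappa2 reached 0.129 without E16.5 replicate 3, and 0.0697, 0.0713 and 0.074 without E16.5 replicate 2 and E15.5 replicates 2 and 3. That of Cxcl14 was also lost without E15.5 replicate 3 (0.175) or E16.5 replicate 2 (0.0522). Dpf3 kept its call only when E16.5 replicate 3 was the library left out (0.306 without E16.5 replicate 2, 0.216, 0.0942 and 0.0524 without E15.5 replicates 2, 3 and 1, and 0.053 without E16.5 replicate 1). E130114P18Rik lost it without E16.5 replicate 2 (0.138) or E15.5 replicate 3 (0.0769). With the mitochondrial covariate Fgf18 (0.0617), Pappa2 (0.0825) and Dpf3 (0.117) were not called.

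**Figure D2:**
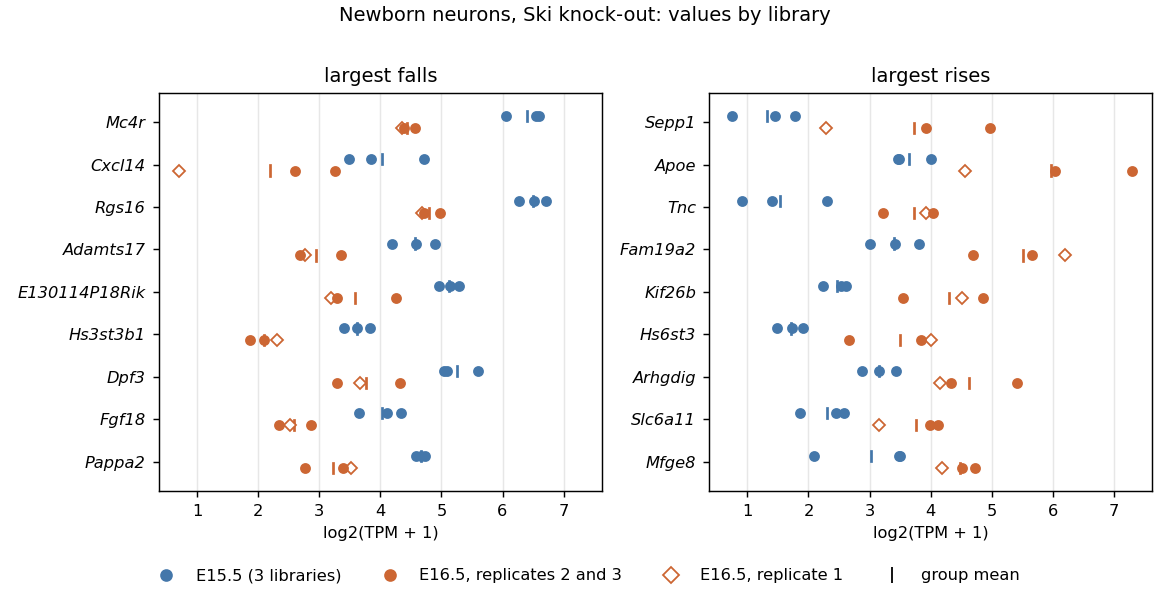
Values in log2(TPM + 1) (x axis) of the named genes with the largest falls and rises among called genes with a mean of at least 10 TPM on 1 of the days (y axis), with each library as a point and the group mean as a bar. In each gene shown the 3 E16.5 libraries lie on 1 side of the 3 of E15.5, and the open diamond, E16.5 replicate 1, is the E16.5 library nearest to E15.5 for Apoe, Sepp1, Slc6a11, Mfge8, Arhgdig, Hs3st3b1 and Pappa2 and the farthest for Cxcl14, Fam19a2, Hs6st3, Mc4r, Rgs16 and E130114P18Rik.

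The next 3 genes that fell were chosen after their values were seen. Kit, the receptor tyrosine kinase for stem cell factor, went from 75.0, 75.2 and 69.2 TPM to 35.5, 27.5 and 29.0 TPM (-1.24 ± 0.23, adjusted p = 0.000753, kept). Drd1a, the dopamine D1 receptor, went from 11.96, 12.3 and 18.0 TPM to 6.11, 5.41 and 3.34 TPM (-1.35 ± 0.26, adjusted p = 0.00155, kept). Both had separate groups on the 2 days. Cblb, an E3 ubiquitin ligase that acts on activated receptors, fell from a mean of 79.7 to 35.4 TPM (-1.19 ± 0.20, adjusted p = 0.000153, kept), and was under the size threshold with the mitochondrial (-0.90) or the length covariate (-0.99). Bcl2, the inhibitor of apoptosis, was the only called gene among 16 of p53 response and apoptosis (-1.15 ± 0.33, adjusted p = 0.049), and among the libraries left out in turn it kept its call only without E16.5 replicate 1, with an adjusted p of 0.0674 to 0.281 in the other cases. It was not called with the mitochondrial (-0.76, 0.247) or the length covariate (-0.86).

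The RGS family, whose members shorten signalling by G protein-coupled receptors, did not move as 1 group. Of 16 Rgs genes tested, 2 fell, 1 rose and 13 were not called, with differences of the latter from -0.97 to 1.16. Rgs8 fell from 66.3, 70.4 and 96.8 TPM to 27.4, 32.7 and 30.0 TPM (-1.33 ± 0.33, adjusted p = 0.022). Rgs3 rose from 18.0, 17.4 and 13.9 TPM to 32.2, 36.8 and 37.2 TPM (1.07 ± 0.16, adjusted p = 4.16e-05). The days did not overlap for either. Rgs8 lost its call without E15.5 replicate 2 (adjusted p = 0.0733) or 3 (0.132) and without E16.5 replicate 2 (0.0868) or 3 (0.0668), and Rgs3 fell just under the size threshold without E15.5 replicate 3 (0.96, adjusted p = 0.00123).

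Rgs8 and Rgs16 are neighbours on chromosome 1, on the same strand, with the 3 RefSeq starts of Rgs8 lying 87.3, 75.1 and 74.7 kb before that of Rgs16. Their promoter windows are shown because these 2 nearby genes both fell. Each window runs from 250 bases before a start to 50 after it on the plus strand (RefSeq, GRCm38.p6), and capitals mark the E-box hexamers CAGATG and CAGCTG on either strand, letters bound by neuronal basic helix-loop-helix factors.
Rgs16, chr1:153740103-153740402: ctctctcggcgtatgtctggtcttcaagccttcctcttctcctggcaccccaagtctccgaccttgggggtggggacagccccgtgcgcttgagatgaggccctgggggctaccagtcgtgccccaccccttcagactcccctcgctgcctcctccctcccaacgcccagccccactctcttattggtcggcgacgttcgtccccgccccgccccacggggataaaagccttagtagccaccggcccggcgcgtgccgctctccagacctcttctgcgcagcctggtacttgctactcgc
Rgs8, start 1, chr1:153652787-153653086: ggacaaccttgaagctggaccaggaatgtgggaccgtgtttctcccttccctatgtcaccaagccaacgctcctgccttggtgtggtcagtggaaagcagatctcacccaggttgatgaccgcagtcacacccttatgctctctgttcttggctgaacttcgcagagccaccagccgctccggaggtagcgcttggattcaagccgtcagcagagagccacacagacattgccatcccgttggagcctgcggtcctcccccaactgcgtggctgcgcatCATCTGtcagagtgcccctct
Rgs8, start 2, chr1:153665024-153665323: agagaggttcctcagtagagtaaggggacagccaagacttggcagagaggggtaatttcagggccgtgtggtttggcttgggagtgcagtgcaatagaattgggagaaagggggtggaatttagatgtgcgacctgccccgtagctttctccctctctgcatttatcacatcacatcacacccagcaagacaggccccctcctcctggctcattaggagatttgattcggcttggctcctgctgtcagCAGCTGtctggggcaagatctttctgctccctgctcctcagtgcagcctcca
Rgs8, start 3, chr1:153665423-153665722: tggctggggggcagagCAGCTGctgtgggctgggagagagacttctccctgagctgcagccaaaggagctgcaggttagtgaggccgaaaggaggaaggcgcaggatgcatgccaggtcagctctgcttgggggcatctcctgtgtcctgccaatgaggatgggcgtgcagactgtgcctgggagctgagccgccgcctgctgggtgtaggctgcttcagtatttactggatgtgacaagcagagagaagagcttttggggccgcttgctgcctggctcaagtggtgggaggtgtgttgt
Each of the 3 Rgs8 windows held 1 such hexamer and the Rgs16 window held none. At least 1 of the 2 hexamers was found in the windows of 7 of the 28 genes that fell and had a window (25%), of 18 of 55 that rose (32.7%), and of 3173 of 10875 genes tested (29.2%). The 2 hexamers were among 13 motifs searched on both strands, the others being a further E-box, CACGTG, the octamer of POU factors, ATGCAAAT, with its shorter form ATGCAAA, the cyclic AMP response element TGACGTCA, the nuclear receptor half-site TGACCT, the half-site of NFI factors TTGGCA, the TATA box TATAAA, the SMAD palindrome GTCTAGAC with the shorter SMAD motif CAGAC, the AT-rich letters AATAAT, and lastly TAATGCAT. The shares are descriptions of these windows, and a window without a match says only that those letters are not in it.

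Most genes of deep-layer identity had lower values at E16.5 and most genes of upper-layer identity higher ones, with few called in either list. Of 14 deep-layer and corticofugal genes, 11 were below 0, 2 fell and none rose, with a median of -0.85 against 0.04 over all genes. Their summed level was 1970, 2436 and 2058 TPM at E15.5 and 1322, 1124 and 1065 TPM at E16.5. All E16.5 libraries lay below all E15.5 libraries for 9 of the 14, where 4.86% of all genes did so. Without E16.5 replicate 1 the median was -1.03 with 4 called, and with it as the only library of its day -0.63 with none called. In none of the alternatives did the median change sign. The lower sum was not particular to newborn neurons. In BP it was 896, 987 and 1040 TPM at E15.5 and 667, 604 and 728 TPM at E16.5, with a median difference of -0.35. In NSC it was 966, 983 and 1042 TPM and then 859, 810 and 576 TPM.

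The 2 that fell were Zfpm2 and Nfe2l3. Zfpm2 (Fog2), a cofactor of GATA factors that marks corticothalamic neurons, had 40.0, 44.2 and 49.0 TPM and then 22.4, 16.3 and 12.3 TPM (-1.37 ± 0.35, adjusted p = 0.0267). Nfe2l3, a basic leucine zipper factor, had 73.9, 75.4 and 88.6 TPM and then 49.4, 33.3 and 21.2 TPM (-1.25 ± 0.34, adjusted p = 0.0363). Zfpm2 lost its call without E15.5 replicate 2 (adjusted p = 0.11) or 3 (0.116) and without E16.5 replicate 2 (0.145) or 3 (0.156), and Nfe2l3 without any library but E16.5 replicate 1 (0.0629 to 0.277). With the mitochondrial covariate neither was called (adjusted p of 0.126 and 0.172) and the median of the list was -0.70. The factors that define the corticofugal class had separate groups but did not pass the test. Bcl11b had 262, 352 and 227 TPM and then 158, 106 and 110 TPM (-1.16 ± 0.43, adjusted p = 0.166). Fezf2 had 337, 455 and 260 TPM and then 183, 146 and 186 TPM (-0.998 ± 0.38, adjusted p = 0.179). Tbr1, the factor of layer 6, had 489, 665 and 573 TPM and then 295, 254 and 317 TPM (-0.99 ± 0.40, adjusted p = 0.208). In the same list Etv1 (1.15 ± 0.60) and Crym (1.21 ± 0.70), neither called, had higher values at E16.5.

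Of 15 upper-layer and callosal genes 13 were above 0, 2 rose and none fell, with a median of 0.40, and 5 passed the adjusted p at any size. Their summed level was 1431, 1321 and 1304 TPM at E15.5 and 2321, 1857 and 1632 TPM at E16.5. Pou3f1, a POU-domain factor also known as Oct6, rose from 41.6, 36.5 and 29.9 TPM to 78.4, 90.8 and 85.2 TPM (1.22 ± 0.30, adjusted p = 0.022). Dkk3, a secreted protein related to Wnt inhibitors, rose from 10.2, 7.46 and 8.04 TPM to 17.0, 22.01 and 17.3 TPM (1.05 ± 0.24, adjusted p = 0.0104). Cux1, a homeodomain factor of layers 2 to 4, showed the least scatter, with 82.8, 75.6 and 73.5 TPM and then 144, 136 and 144.6 TPM (0.86 ± 0.13, adjusted p = 4.16e-05, under the size threshold). Cux2 had 51.9, 44.2 and 41.0 TPM and then 86.8, 76.6 and 77.5 TPM (0.80 ± 0.25, adjusted p = 0.0767). The days did not overlap for these 4 genes. Pou3f2 (0.11 ± 0.41) and Mef2c (0.02 ± 0.52) had overlapping days. Pou3f1 lost its call without E15.5 replicate 2 (adjusted p = 0.0928) or 3 (0.124) and without E16.5 replicate 2 (0.145) or 3 (0.0679), and Dkk3 without E15.5 replicate 2 (0.0928) or 3 (0.0587) or E16.5 replicate 2 (0.13). The median of the list was 0.34 without E16.5 replicate 1 and 0.83 with it as the only library of its day. With the mitochondrial covariate it was 0.80, and Dkk3 was just under the size threshold (0.97, adjusted p = 0.0335). All E16.5 libraries lay above all E15.5 libraries for 7 of the 15, where 12.4% of all genes did so. In BP the median difference of the list was 0.16. Its sums overlapped between the days in BP (2210, 2077 and 1688 TPM, then 2490, 1871 and 1915 TPM). They also did in NSC (1857, 2005 and 1893 TPM, then 2092, 1837 and 1966 TPM).

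**Figure D3:**
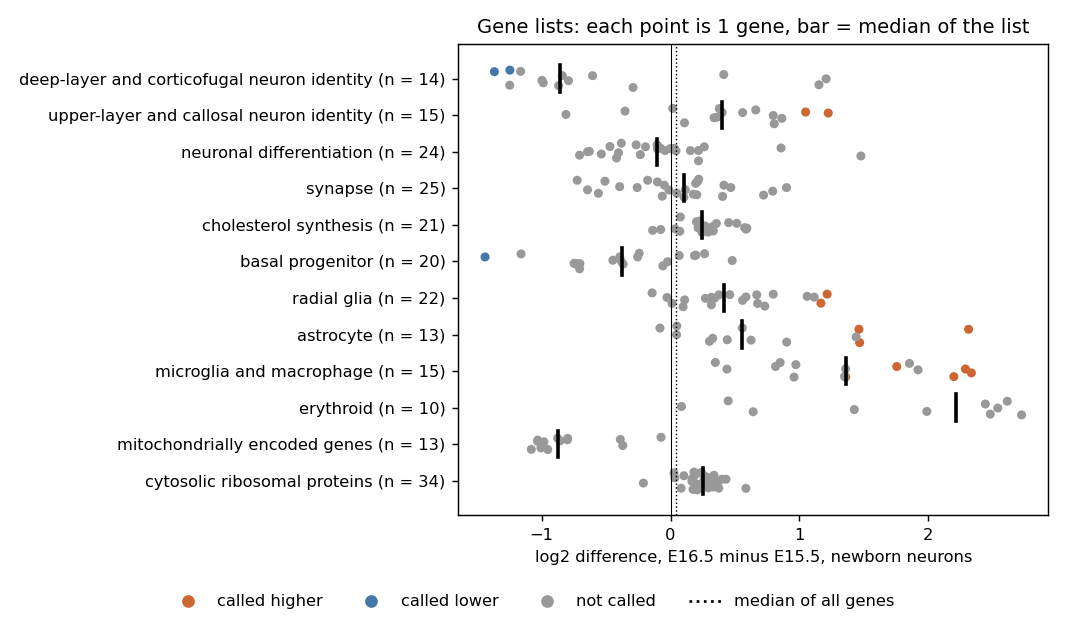
Log2 difference (x axis, E16.5 minus E15.5 in newborn neurons) of each tested gene of 12 lists (y axis), with the median of each list as a bar and that of all genes as a dotted line. Deep-layer genes have a median of -0.85, upper-layer genes of 0.40, microglial genes of 1.36, and all 13 mitochondrially encoded genes lie below 0.

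Among the largest rises were Kif26b, Fam19a2 and Hs6st3. Kif26b, a kinesin family member, rose from 5.13, 3.71 and 4.79 TPM to 21.8, 28.0 and 10.7 TPM (1.84 ± 0.29, adjusted p = 8.9e-05, kept). Fam19a2, a secreted chemokine-like protein of neurons, rose from 13.0, 9.67 and 6.999 TPM to 72.3, 49.8 and 24.96 TPM (2.11 ± 0.48, adjusted p = 0.0106). Hs6st3, which adds 6-O-sulfate to heparan sulfate, rose from 2.75, 2.33 and 1.78 TPM to 15.1, 13.4 and 5.33 TPM (1.80 ± 0.37, adjusted p = 0.00324), while Hs3st3b1 fell. In these 3 genes E16.5 replicate 3 was the lowest of its day and still above each E15.5 library. Arhgdig rose from 7.89, 6.39 and 9.82 TPM to 16.7, 41.5 and 19.2 TPM (1.47 ± 0.33, adjusted p = 0.0106). It was highest in E16.5 replicate 2 and lost its call without it (adjusted p = 0.236), as did Hs6st3 (0.0544) and Fam19a2 (0.0828). Without E15.5 replicate 2, the adjusted p was 0.0547 for Fam19a2 and 0.0992 for Arhgdig, and without E15.5 replicate 3 it was 0.085 for Fam19a2. Slc6a11, the GABA transporter GAT3 known from astrocytes, rose from 4.48, 2.65 and 4.99 TPM to 7.94, 16.4 and 14.9 TPM (1.46 ± 0.24, adjusted p = 0.000151, kept).

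Bpgm and Podxl, chosen after their values were seen, had the smallest adjusted p among the rises and were called in all 21 alternatives, as was Rgs16 among the falls. No other called gene was. Bpgm, the bisphosphoglycerate mutase, rose from 19.2, 17.8 and 15.3 TPM to 37.6, 44.1 and 48.7 TPM (1.27 ± 0.16, adjusted p = 3.46e-06). Podxl, a sialomucin of the cell surface, rose from 9.06, 7.89 and 7.62 TPM to 20.3, 27.7 and 24.3 TPM (1.44 ± 0.19, adjusted p = 3.46e-06). Both separated the days in every library. Dtx4, a Deltex E3 ubiquitin ligase tied to Notch, was the only called gene of 21 in the Notch pathway, with 13.46, 12.6 and 18.3 TPM and then 41.3, 51.3 and 31.9 TPM (1.42 ± 0.25, adjusted p = 0.000542, kept), while the Notch target Hes5 was at 1.02 to 6.30 TPM in the 6 libraries (0.59 ± 0.45, adjusted p = 0.531). Sstr1, a somatostatin receptor, was the only call among 19 neuropeptide and receptor genes, from 0.85, 0.35 and 1.01 TPM to 3.67, 5.39 and 3.17 TPM (1.54 ± 0.32, adjusted p = 0.00359), and was lost without replicate 2 of E15.5 (0.0588) or of E16.5 (0.0727). Slit2, a repellent of axons, was the only call among 36 genes of axon growth and guidance, from 5.51, 3.50 and 2.44 TPM to 14.0, 7.48 and 8.08 TPM (1.17 ± 0.29, adjusted p = 0.0213), and was lost without E15.5 replicate 2 (0.103) or 3 (0.159) or E16.5 replicate 1 (0.0726).

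Levels in newborn neurons of later days are given beside these, as means ± SD over 4 libraries of E17.5 and 3 of E18.5. Mc4r was at 8.97 ± 1.83 and 5.62 ± 3.64 TPM, Rgs16 at 10.5 ± 2.10 and 4.65 ± 1.37 TPM, and Rgs8 at 11.1 ± 3.26 and 5.10 ± 3.71 TPM, with each mean below all E16.5 libraries. Dpf3 was at 7.99 ± 1.09 and 9.05 ± 1.83 TPM, the first of these means below all its E16.5 libraries and the second within their range. Pou3f1 was at 116 ± 13.503 and 132 ± 6.14 TPM, Dtx4 at 88.2 ± 26.1 and 135.2 ± 15.7 TPM and Kif26b at 33.8 ± 11.6 and 52.1 ± 11.3 TPM, and their means were above those of E16.5. Bpgm was at 50.4 ± 3.15 and 54.0 ± 8.30 TPM, above its E16.5 libraries by less than their own range. No test is attached to these levels, since a step from E16.5 would share its libraries with the comparison above. Mitochondrially encoded genes summed to 100526, 48468, 50588 and 61163 TPM in the E17.5 libraries and to 59646, 55229 and 54635 TPM at E18.5. All of these but E17.5 replicate 1 were nearer to E16.5 replicates 2 and 3 than to the E15.5 libraries. How far this difference between libraries enters the levels by day was not tested.

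**Figure D4:**
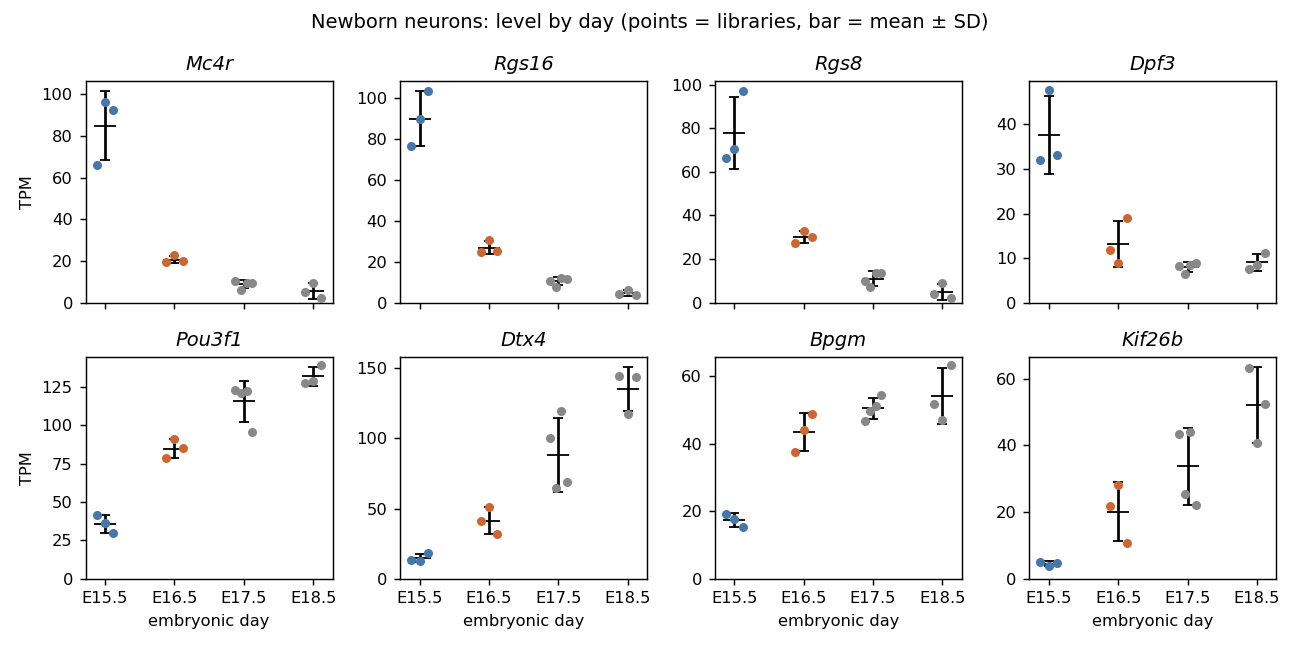
Level in TPM (y axes) of 8 genes in each newborn neuron library of E15.5, E16.5, E17.5 and E18.5 (x axis), with the mean ± SD as a bar. Mc4r, Rgs16 and Rgs8 are highest at E15.5 and lower on each following day, Dpf3 and Bpgm differ mainly between E15.5 and the later days, and Pou3f1, Dtx4 and Kif26b have a higher mean on each following day.

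Genes of other cell types were among those that rose, and most were highest in E16.5 replicates 2 and 3. In bulk libraries, more cells of a type and more RNA per cell cannot be told apart. Of 15 microglial and macrophage genes 5 rose and none fell, with a median of 1.36. Their sum was 22.7, 14.4 and 22.3 TPM at E15.5 and 21.5, 68.4 and 151.6 TPM at E16.5. C1qa, a complement subunit made by microglia, had 0.52, 0.37 and 0.39 TPM and then 1.40, 6.35 and 18.2 TPM (2.29 ± 0.59, adjusted p = 0.0268), and C1qc (2.34 ± 0.59), C1qb (2.20 ± 0.60), Ctss (1.76 ± 0.49) and Csf1r (1.36 ± 0.38) rose with it. None of the 5 calls was kept. All 5 differences were smallest without E16.5 replicate 3, that of C1qa being 1.56 then, against 2.25 to 2.33 without E16.5 replicate 2 or any E15.5 library. Without E16.5 replicate 3 the adjusted p was 0.268 for C1qc, 0.295 for C1qa, 0.392 for C1qb, 0.408 for Csf1r and 0.518 for Ctss. It was 0.153 to 0.26 without E16.5 replicate 2, 0.116 to 0.173 without E15.5 replicate 2 and 0.0967 to 0.131 without E15.5 replicate 3. Without E15.5 replicate 1 it was 0.0514 to 0.102 for all but C1qc, which was then called. With the mitochondrial covariate none of the 5 was called (0.105 to 0.174), and with the length covariate C1qb, Csf1r and Ctss were not (0.0531 to 0.0652). With E16.5 replicate 1 as the only library of its day the median of the list was 0.31 and none was called, and without it the median was 1.92 and 11 were called. The median with the mitochondrial covariate was 1.055. Apoe, the lipid carrier made by glia and microglia, had 15.2, 10.1 and 10.1 TPM and then 22.6, 64.8 and 157 TPM (2.31 ± 0.46, adjusted p = 0.00269), and lost its call without E16.5 replicate 3 (0.0793). Sepp1, selenoprotein P, had 2.42, 0.68 and 1.74 TPM and then 3.89, 14.1 and 30.3 TPM (2.40 ± 0.62, adjusted p = 0.0286), and lost it without E16.5 replicate 3 (0.262) or 2 (0.177) or E15.5 replicate 2 (0.194) or 3 (0.0901) and with the mitochondrial covariate (0.15). Erythroid genes had a sum of 717, 86.3 and 143 TPM and then 364, 1650 and 3023 TPM, and all 10 tested lay above 0 (median 2.22), with no call by limma and 7 at an unadjusted p under 0.05. Without E16.5 replicate 1 that median was 3.16, and 0.36 with it as the only library of its day, and it was 1.18 with the mitochondrial covariate.

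A few astroglial and radial glial genes rose. Of 13 astrocyte genes 3 rose (Apoe, Aldh1l1 and Mlc1) and none fell, with a median of 0.56, while Gfap, Aqp4, S100b and Gjb6 were under 1 TPM in each of the 6 libraries. Their sum was 151.9, 133.8 and 146.1 TPM and then 165.2, 229.7 and 304.2 TPM, with E16.5 replicate 1 close to the E15.5 libraries. Apoe, which microglia also make, held 15.2, 10.1 and 10.1 TPM of these sums at E15.5 and 22.6, 64.8 and 157 TPM at E16.5. It thus made up much of the higher sums of E16.5 replicates 2 and 3. Aldh1l1, a folate enzyme used as an astrocyte marker, had 0.30, 0.11 and 0.40 TPM and then 2.06, 2.94 and 2.57 TPM (1.47 ± 0.30, adjusted p = 0.0035, kept). Mlc1, a membrane protein of astrocytes, had 1.34, 0.23 and 0.69 TPM and then 2.95, 5.47 and 3.00 TPM (1.46 ± 0.30, adjusted p = 0.00324), and lost its call without replicate 2 of E15.5 (0.0733) or of E16.5 (0.0876). Tnc, the matrix glycoprotein tenascin C of radial glia and astrocytes, rose from 3.96, 0.88 and 1.63 TPM to 14.1, 15.48 and 8.37 TPM (2.19 ± 0.39, adjusted p = 0.000505, kept). Mfge8, a secreted bridge to phagocytes, rose from 10.3, 3.26 and 10.2 TPM to 17.3, 25.4 and 21.9 TPM (1.45 ± 0.36, adjusted p = 0.022), with a difference of 0.99 without E15.5 replicate 2 (0.281), and lost its call without E16.5 replicate 2 (0.176) or 3 (0.0695) and with the mitochondrial covariate (0.114).

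Of 22 radial glia genes 2 rose, 20 were above 0 and the median was 0.42. Their sum was 899.9, 651.9 and 894.5 TPM and then 998.3, 1069 and 1133 TPM. Fabp7, the brain lipid binding protein of radial glia, rose from 68.1, 32.5 and 62.4 TPM to 118, 124 and 122 TPM (1.22 ± 0.32, adjusted p = 0.0342), and Pdpn, podoplanin, from 4.66, 1.66 and 3.10 TPM to 6.72, 8.84 and 8.21 TPM (1.17 ± 0.33, adjusted p = 0.0492). The library with the least of both was E15.5 replicate 2, and without it neither was called (0.89 with adjusted p = 0.311 for Fabp7, 0.88 with 0.341 for Pdpn). Both also lost their calls without E15.5 replicate 3 (0.0668 and 0.131) and without E16.5 replicate 2 (0.177 and 0.273) or 3 (0.1 and 0.153), and with the mitochondrial covariate (0.118 and 0.224). Pax6, the radial glial transcription factor, was at 10.8 to 22.8 TPM and then 13.1 to 29.8 TPM (0.10 ± 0.31), and Sox2 did not differ beyond its spread (0.32 ± 0.28, adjusted p = 0.58). Olig1, a factor of the oligodendrocyte lineage, rose from 0.25, 0.06 and 0.23 TPM to 2.60, 6.78 and 5.11 TPM (2.24 ± 0.42, adjusted p = 0.00114, kept), the only call among 12 genes of that lineage. Pdgfrb, a pericyte receptor, was the only call among 14 vascular genes (1.08 ± 0.24, adjusted p = 0.0095), and lost its call without E15.5 replicate 2 (0.136) and without E16.5 replicate 2 (0.0556) or 3 (0.0993) and was under the size threshold with the mitochondrial covariate (0.92). Of the interneuron, Cajal-Retzius, meningeal, choroid plexus and Y-linked genes none was called by limma. Above 0 at an unadjusted p under 0.05 were 10 of 18, 1 of 13, 6 of 11, 0 of 7 and 0 of 4, and 2 choroid plexus genes were below. So were 7 of the 12 oligodendrocyte lineage genes (median 0.59) and 7 of the 14 vascular genes above 0 at that threshold. Over all genes 15.3% passed it in either direction. Without E16.5 replicate 1, 2 interneuron genes and 3 vascular genes were called. The interneuron median was 0.77, or 0.99 without that library and 0.37 with it as the only one of its day. In the same order the medians were 0.29, 0.55 and -0.25 for Cajal-Retzius genes, 0.80, 1.26 and 0.55 for meningeal genes, and 0.76, 0.80 and 0.74 for vascular genes, so that the Cajal-Retzius median changed sign. The part of these cells in the other results was not tested.

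Genes of the basal progenitor, the cell that precedes the neuron, tended to lower values. Of 20, 15 were below 0 and 1 fell, with a median of -0.37. Neurog1, a proneural basic helix-loop-helix factor, had 8.72, 6.10 and 11.4 TPM and then 1.85, 2.05 and 3.93 TPM, without overlap (-1.44 ± 0.29, adjusted p = 0.00312, and 0.0534 without E15.5 replicate 3). Eomes, the gene behind the reporter, had 77.8, 43.1 and 93.5 TPM and then 27.6, 20.1 and 47.7 TPM, with overlap (-1.16 ± 0.43, adjusted p = 0.163). Neurod1 was nearly the same (-0.02 ± 0.32). Of 22 genes of S phase and 22 of the G2 and M phases none was called by limma, with 1 above and 1 below 0 at an unadjusted p under 0.05 in S phase and 3 above in G2 and M.

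The general programs of a differentiating neuron were not called. None of 24 genes of neuronal differentiation, 25 of the synapse, 30 glutamate and GABA receptors, 32 voltage-gated channels or 28 of the growth-cone cytoskeleton passed both thresholds with limma. At an unadjusted p under 0.05 there were 1 above and 0 below 0 in the first of these lists, 1 and 1 in the second, 4 and 1 in the third, 0 and 2 in the fourth and 2 and 0 in the fifth. Their medians were -0.10, 0.10, 0.13, 0.03 and 0.13. In the same order, 3, 5, 5, 4 and 10 genes had all E16.5 libraries above all of E15.5, where 12.4% of all genes did. All E16.5 libraries lay below for 4, 1, 5, 4 and 2 genes, against 4.86% of all genes. Without E16.5 replicate 1 the median was -0.23 for neuronal differentiation and -0.17 for voltage-gated channels, and with it as the only library of its day 0.12 and 0.25, so that both changed sign with that library. With the mitochondrial covariate they were 0.12 and 0.32, that of the receptors was 0.41, and 1 synapse gene was called. Within them, the AMPA receptor subunit Gria3 had 69.2, 63.4 and 72.2 TPM and then 44.6, 19.7 and 14.0 TPM (-1.52 ± 0.45, adjusted p = 0.0609), and was called without E16.5 replicate 1 (-1.98, 0.0137). The neurofilament gene Nefl had 13.3, 12.7 and 10.9 TPM and then 41.2, 39.2 and 28.6 TPM, without overlap, and did not pass (1.48 ± 0.58, adjusted p = 0.191). Tubb3 (0.22 ± 0.26), Dcx (-0.40 ± 0.41), Neurod2 (-0.23 ± 0.45) and Neurod6 (-0.63 ± 0.56) were not called.

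Cholesterol synthesis genes had small differences of 1 sign. Of 21 tested, 19 were above 0, none was called at 2-fold, 10 were above 0 at an unadjusted p under 0.05 and 4 passed the adjusted p at any size. The largest was that of Fdps, farnesyl diphosphate synthase, with 188, 184 and 191 TPM and then 257, 348 and 254 TPM (0.59 ± 0.17, adjusted p = 0.0496). The median was 0.24, or 0.25 without E16.5 replicate 1 and 0.38 with it as the only library of its day. All E16.5 libraries lay above all E15.5 libraries for 11 of the 21, where 12.4% of all genes did so. Of 20 SKI partners 13 were below 0, with a median of -0.11, none called by limma, and 1 above and 3 below 0 at an unadjusted p under 0.05. The 1 above, Smad3, the signal transducer of the TGF-beta pathway, had 8.28, 9.94 and 9.83 TPM and then 17.6, 23.3 and 14.8 TPM (0.90 ± 0.20, adjusted p = 0.0094), under the size threshold except without E16.5 replicate 3, where it was 1.04. None of the mitochondrially encoded genes was called by limma, with 8 of 13 at an unadjusted p under 0.05 and all below 0 (median -0.88). The median was -1.41 with 7 called without E16.5 replicate 1, and 0.09 with none called when it was the only library of its day.

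The same day in basal progenitors and neural stem cells, sorted from embryos of the same ages, shares no library with the newborn neurons. The libraries are still not independent, since those of newborn neurons and basal progenitors deviate together by number, as described below. Mitochondrially encoded genes summed to 105754 TPM in replicate 1 of the E16.5 basal progenitors and to 45975 and 50795 TPM in replicates 2 and 3, the same pattern as in newborn neurons. In neural stem cells these sums were 50390, 59895 and 74603 TPM at E15.5 and 77906, 51496 and 50715 TPM at E16.5. In basal progenitors 91 genes rose (0.597%) and 10 fell (0.0657%), and in neural stem cells 7 rose (0.046%) and 1 fell (0.00657%). Of the genes that rose in newborn neurons, 17 also rose in basal progenitors, which is 22.1% of the 77 and 18.7% of the 91, among them Tnc, Slc6a11, Mfge8, Dtx4, Dkk3 and Aldh1l1. Of those that fell 2 also fell in basal progenitors, Fsip1 and Ttc39b, which is 5.56% of the 36 and 20% of the 10. Ttc39b lost its call in newborn neurons without E15.5 replicate 2 (0.0645) or 3 (0.0769) or E16.5 replicate 2 (0.193), and with the mitochondrial covariate (0.073). The 77 rises had a median of 1.30 in newborn neurons, 0.81 in basal progenitors and 0.61 in neural stem cells, and 71 and 69 of them were above 0 there, where 61.8% and 41% of all genes were. The 36 falls had a median of -1.28 in newborn neurons, -0.15 in basal progenitors and -0.50 in neural stem cells, and 22 and 32 of them were below 0 there, where 38.2% and 58.9% of all genes were. These genes were chosen by their change in newborn neurons, so the larger medians in newborn neurons follow in part from that choice.

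The difference between the day changes was tested directly. In the fit over all libraries no gene changed more upward in newborn neurons than in basal progenitors (0%) and 6 changed more downward (0.0394%), with 470 genes at an unadjusted p under 0.05 in either direction (limma). The 6 were Rgs16 (-1.36 ± 0.26, adjusted p = 0.0322), Wscd1, Arhgap26, Pdzd2, Gfra2 and Lao1, the last with means of 0.033 and 0.072 TPM in newborn neurons. Rgs16 had means of 30.2 ± 3.40 and 23.5 ± 3.64 TPM in basal progenitors (SD, n = 3), so that its neuronal level came down from above theirs to near it. Against neural stem cells 0 genes passed in either direction (0% and 0%) with limma, and 934 had an unadjusted p under 0.05, 824 upward and 110 downward. Arhgap26 kept this call with each of the 12 libraries left out in turn, and the other 5 lost theirs without some of them, so that 1 to 6 such calls were left. Arhgap26 and Lao1 were not called once the libraries were paired as below.

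Newborn neuron and basal progenitor libraries of the same day and number deviated together from their group means (r of 0.145 to 0.434 at E15.5 and 0.478 to 0.825 at E16.5), and with that pairing as a block 10 genes changed more upward (0.0657%) and 35 more downward (0.23%) in newborn neurons. The block was added after seeing the data, with a pairing read from these same values, and it leaves 4 residual degrees of freedom. Of the 35, 8 were themselves called as falls in newborn neurons, and 3 of the 10 as rises. Dpf3 had the largest difference (-2.08 ± 0.21, adjusted p = 0.00876): its mean fell from 37.6 to 13.2 TPM in newborn neurons and went from 7.49 to 12.1 TPM in basal progenitors, where it was not called. Fgf18 (-1.64 ± 0.18), Pappa2 (-1.69 ± 0.24), Rgs16 (-1.36 ± 0.18), Mc4r (-1.22 ± 0.20) and Slc8a3, a sodium-calcium exchanger (-1.16 ± 0.17), were also among them. In basal progenitors Mc4r had means of 1.74 and 0.602 TPM, Fgf18 of 0.90 and 1.18 TPM and Slc8a3 of 2.06 and 2.03 TPM. At such low levels the log2(TPM + 1) scale understates a change, so that part of the Mc4r difference may come from the scale. In newborn neurons alone Slc8a3 lost its call without replicate 2 or 3 of either day (adjusted p of 0.103 to 0.131) and with the mitochondrial covariate (0.114). On the other side stood Kif26b, with means of 4.54 and 20.2 TPM in newborn neurons and of 20.3 and 19.5 TPM in basal progenitors (1.88 ± 0.30, adjusted p = 0.0458), Sstr1 (1.74 ± 0.27) and Nell1, a secreted glycoprotein (1.44 ± 0.20). Genes of AMPA and NMDA receptors were among the 35, namely Gria1 (-1.62 ± 0.16), Gria3 (-1.18 ± 0.18), Grin2b (-1.05 ± 0.14) and the auxiliary subunit Cnih3 (-1.16 ± 0.11). None of these 4 was called in newborn neurons: means of Gria1 were 51.9 and 34.3 TPM there, and 8.33 and 18.1 TPM in basal progenitors. Those of Grin2b were 53.5 and 47.1 TPM in newborn neurons and 3.56 and 7.14 TPM in basal progenitors. The vesicular glutamate transporter gene Slc17a6 was among the 10 that differed the other way (1.42 ± 0.23). The genes outside the largest falls and rises described above were chosen after their values were seen.

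**Figure D5:**
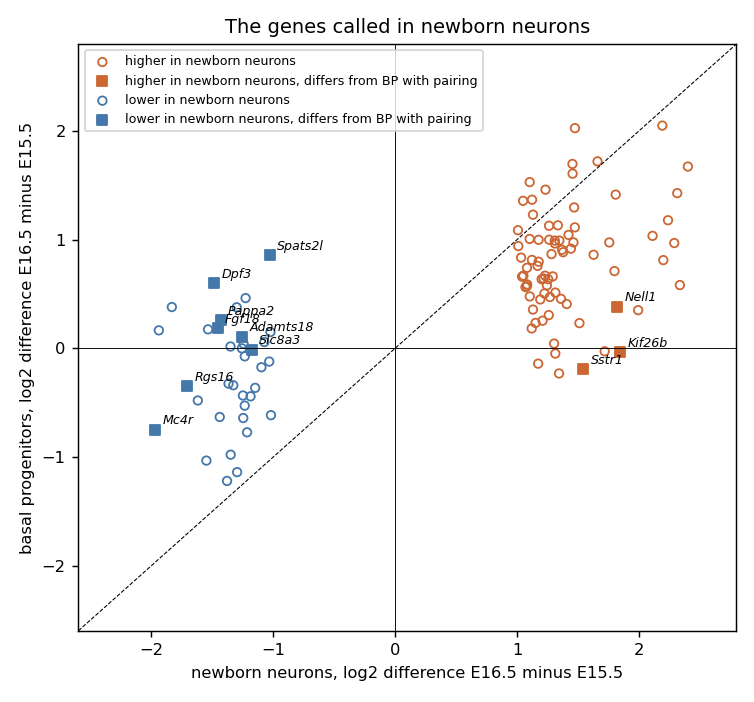
Log2 difference from E15.5 to E16.5 in newborn neurons (x axis) and in basal progenitors (y axis) of all genes called in newborn neurons, with equal change on the dashed line and filled squares for the 11 whose changes differ with libraries paired by day and number. That pairing was added after seeing the data. The rises have a median of 1.30 on the x axis and 0.81 on the y axis, and the falls of -1.28 and -0.15. The genes were chosen by the x axis, so larger medians on it follow in part from that choice.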

How the data were processed

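RNA of sorted cells was made into libraries with TRIzol extraction and the TruSeq RNA v2 kit and read as single 50 base reads, per the labels' protocols. The submitters' processing notes name kallisto 0.43.0 and the builds GRCm38.p2 and mm10. What the authors deposited and what was used is 1 table of TPM with 23078 genes in 63 libraries, whose own symbols are used. Depth per library is not known from TPM, so no counting error or detection floor is given. The error of a difference comes only from the spread between libraries of a group, shared over all groups.

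The scale was log2(TPM + 1), for the genes that reached 1 TPM in 3 or more libraries. The model, fitted by limma 3.58.1 (R 4.3.3), held all 63 libraries and a mean per group (19 in all; moderated variances with a trend), so that the groups share 1 estimate of spread. A call needs a Benjamini-Hochberg adjusted p under 0.05 over all 15231 genes and a log2 difference of at least 1 in size.

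Genes are named as the 10 largest rises and 10 largest falls among called genes with a mean of at least 10 TPM on a day, up to 4 called members of each of 38 gene lists (or the 1 with the largest difference), a fixed set of 23 genes, and up to 4 called genes in each direction of the contrasts with basal progenitors and neural stem cells. The members and lists were chosen with earlier results of these data known. Some genes were named after their values were seen, as said beside them. A few genes that the rule names are not reported here.

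Replicate numbers did not pair E15.5 with E16.5 newborn neurons. Between newborn neurons and basal progenitors of 1 day they did by the correlation of deviations from the group means, which was above 0.1 for each of the 6 pairs and highest for the own number, and the sum of Y-linked genes followed the same numbers. The labels do not state this pairing. Alternatives were other pseudocounts, filters, scalings, library sets, blocks, library weights and covariates, and leaving out each library. Promoter windows are from RefSeq (GRCm38.p6) and were found by symbol for 10875 genes tested.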

Additional observations from a re-analysis of the deposited data

Results flagged for a closer look

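For 6 genes the change from E15.5 to E16.5 differed between newborn neurons and basal progenitors by the test of the difference over all libraries (limma, adjusted p under 0.05): Arhgap26 by -1.28, Gfra2 by -1.71, Lao1 by -1.08, Pdzd2 by -1.31, Rgs16 by -1.36 and Wscd1 by -1.14 on the log2(TPM + 1) scale, each more downward in newborn neurons. With libraries paired by day and number, a block added after seeing the data, 4 of the 6 were also called, and Arhgap26 and Lao1 were not. Hs6st3 had 1 library far from the others among the 4 of E17.5 in newborn neurons, at 28.7 TPM, with the nearest at 14.1 TPM. It was the only such library among the 20 genes checked, and chance gives about 1 in 20 of such groups.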

How the results depend on the processing

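For newborn neurons the numbers of rises and falls moved as follows against 77 and 36. A pseudocount of 0.1 gave 142 rises and of 5 gave 16, and a mean of at least 5 TPM gave 43. With only the 6 libraries of the comparison there were 9 and 8, and with a replicate block in them 13 rises. Array weights, whose estimation did not fully converge, gave 217 and 232. Leaving out 1 library gave 26 to 142 rises and 13 to 71 falls. Added after seeing the data, a mitochondrial covariate gave 15 falls, and E16.5 replicate 1 as the only library of its day gave 14 and 8. No other alternative moved these counts by more than 1.5 times, among them both scalings, no filter, a Y-linked covariate, a transcript length covariate and the replicate block in all libraries (70 and 35). The numbers do not pair the samples: deviations correlated by 0.0334, 0.289 and -0.0699. No called gene changed sign. For the difference from basal progenitors (0 and 6), falls were 1 with a pseudocount of 0.1, a mean of at least 5 TPM, quantile normalization or the replicate block in all libraries, and 0 with only the libraries of the contrast, with or without the replicate block by number. A pseudocount of 5 gave 1 and 12, median-of-ratios scaling 3 rises, array weights 20 and 50, and the transcript length covariate 2 and 10. The replicate block of day and number, added after seeing the data, gave 10 and 35. Leaving out 1 library gave 0 to 2 and 1 to 6. For the difference from neural stem cells (0 and 0), rises were 2 with a pseudocount of 0.1 or the mitochondrial covariate, 1 with no filter, a mean of at least 5 TPM or the length covariate, and 0 to 1 with 1 library left out, with 0 falls. The cause of these moves was not tested.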

Other observations

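Further called genes, chosen after their values were seen and in none of the gene lists above, are given singly. Lrrtm3 fell from 43.7, 48.0 and 47.1 TPM to 23.3, 17.1 and 17.4 TPM (-1.23 ± 0.32, adjusted p = 0.0268, limma) and Lrrtm4 fell from 29.9, 29.4 and 32.4 TPM to 18.5, 14.6 and 9.46 TPM (-1.10 ± 0.30, adjusted p = 0.0358), leucine-rich repeat proteins of the postsynaptic membrane. Both lost their calls without E15.5 replicate 2 (0.123 and 0.127) or 3 (0.098 and 0.132) and without E16.5 replicate 2 (0.18 and 0.153) or 3 (0.104 and 0.263), and Lrrtm4 also without E15.5 replicate 1 (0.071). Neither was called with the mitochondrial covariate (0.128 and 0.191), and Lrrtm4 was under the size threshold with the length covariate (-0.90). Pcdh8, a protocadherin, rose from 35.2, 25.2 and 18.6 TPM to 58.4, 64.9 and 62.1 TPM (1.24 ± 0.27, adjusted p = 0.00575, and 0.0895 without E15.5 replicate 3). Cbln4, a secreted synapse organizer, was at 0.09, 0.27 and 0.31 TPM and then at 2.73, 3.67 and 2.73 TPM (1.72 ± 0.37, adjusted p = 0.00575, and 0.0664 without E16.5 replicate 2). The potassium channel gene Kcnf1 rose from 1.12, 0.92 and 1.51 TPM to 3.34, 5.22 and 4.802 TPM (1.31 ± 0.24, adjusted p = 0.000666) with each library left out in turn. The days did not overlap for any of these 5 genes.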
